A study of Mus musculus with 8 samples.

Results

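Mitochondrial ribosomal protein genes were followed in haematopoietic stem cells of mouse bone marrow, comparing 4 wild-type mice with 4 mice labelled as Gata2; Mx1-Cre heterozygotes, with 1 RNA-seq library per mouse. The members are the protein-coding genes named Mrpl or Mrps followed by a digit that reached 10 counts in at least 4 of the 8 libraries. 78 genes carry such a symbol, and 77 passed, 48 of the large and 29 of the small subunit by symbol, out of 53715 genes in the files. Sorting took lineage-negative cells with Sca-1, Kit and CD150 on their surface and no CD48. Every mouse was between 8 and 12 weeks old and had been given pIpC, an interferon-inducing RNA mimic, in 6 doses. Mx1-Cre is a Cre transgene under the interferon-responsive Mx1 promoter, which is active in blood cells and in other tissues. The labels name it for the heterozygotes alone and do not say whether wild-type mice carried it, so a transgene effect and a Gata2 effect cannot be told apart.

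The mitochondrial ribosome translates the few proteins encoded by mitochondrial DNA, all of them subunits of the respiratory chain and the ATP synthase. Its RNAs are mitochondrial, but every one of its proteins is encoded in the nucleus, made in the cytoplasm and imported. Many of these proteins have bacterial relatives and others were added during the evolution of mitochondria, and the large and small subunits are assembled separately before they join on a messenger RNA. Haematopoietic stem cells keep a low rate of cytoplasmic protein synthesis, and their exit from quiescence depends on mitochondrial activity.

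Libraries held 16750778 to 22861884 counted fragments, and the 77 genes together took between 0.951% and 1.13% of them. Levels are given as CPM, the counts of a gene scaled to a common library total with TMM factors. The labels' genotype was first checked on Gata2 itself, a zinc-finger factor of blood stem cells, whose mean was 35.8 ± 7.65 CPM (SD, n = 4) under the wild-type and 44.8 ± 12.2 CPM (SD, n = 4) under the heterozygote label, for a log2 difference of 0.33 (SE 0.23) with an edgeR adjusted p of 0.858. The transcript was thus not lower under the heterozygote label, so each direction below refers to the label. Whole-gene counts do not separate the exons that recombination removes. The stem cell markers Kit, Ly6a, Slamf1, Procr, Mecom, Hlf and Fgd5 summed to 579 to 710 CPM in wild-type and 683 to 752 CPM in heterozygote-labelled libraries. Summed markers of granulocytes and monocytes ran from 536 to 657 and from 500 to 626 CPM, those of megakaryocytes from 559 to 879 and from 448 to 733 CPM, and those of erythroid cells from 40.6 to 82.4 and from 22.8 to 56.6 CPM. Lymphoid markers summed to at most 6.22 CPM, with Cd3e, Ncr1 and Cd8a at 0 in all 8 libraries. Few genes can carry such a sum, and it can hide opposite directions. Of the 7 stem cell markers, 5 had a higher fitted level under the heterozygote label, and Kit and Slamf1 a lower one. Ly6a had a log2 difference of 0.53 (SE 0.15) without overlap of the labels (3.47% of all genes), and Slamf1 one of -0.50 (SE 0.26). None of the 7 passed adjustment in edgeR. The median level of the markers tested was 79.0 CPM for stem cells and 15.2 CPM for granulocytes and monocytes. It was 16.7 CPM for megakaryocytes and 5.59 CPM for erythroid cells. The part of these other cell types in the members' values was not tested. In bulk RNA, fewer cells of a type and less RNA per cell cannot be told apart.

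No mitochondrial ribosomal protein gene passed the test between the genotype labels. edgeR's quasi-likelihood test with Benjamini-Hochberg adjustment over 13992 genes called 0 of the 77 at an adjusted p under 0.05, the same as for the whole transcriptome (0.0%), and the smallest adjusted p among the members was 0.850. At an unadjusted p under 0.05 edgeR took 2 of the 77 (2.60%), against 5.66% of all genes tested. These were Mrps22, with a higher level under the heterozygote label (2.37% of all genes), and Mrpl4, with a lower one (3.29% of all genes). DESeq2 called none of the 77 after adjustment (0.208% of all genes) and took 4 unadjusted, against 7.4% of all genes. limma called none after adjustment, as for all genes (0.0%), and took 9 unadjusted, against 10.4%. In none of the 77 did the 4 libraries of one label lie wholly above or below those of the other, an arrangement found in 3.47% of all genes. By exact two-sided permutation over the libraries, the smallest p of any member was 0.057, where 4 against 4 allows 0.029. The unadjusted edgeR count depended on single libraries: it was 18 of 77 (23.4%, against 12.5% of all genes) without wild-type replicate 3, and 0 without wild-type replicate 1 or 2 or without heterozygote-labelled replicate 2 or 3.

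The data limit how large a difference could have gone unseen. For 37 of the 48 large-subunit genes and 16 of the 29 small-subunit genes, the 95% confidence interval of the difference lay wholly inside 1.5-fold in either direction. Only Mrpl4 and Mrps30 had intervals that reached a 2-fold difference. The median standard error was 0.15 log2 units in the large and 0.16 in the small subunit.

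**Figure D1:**
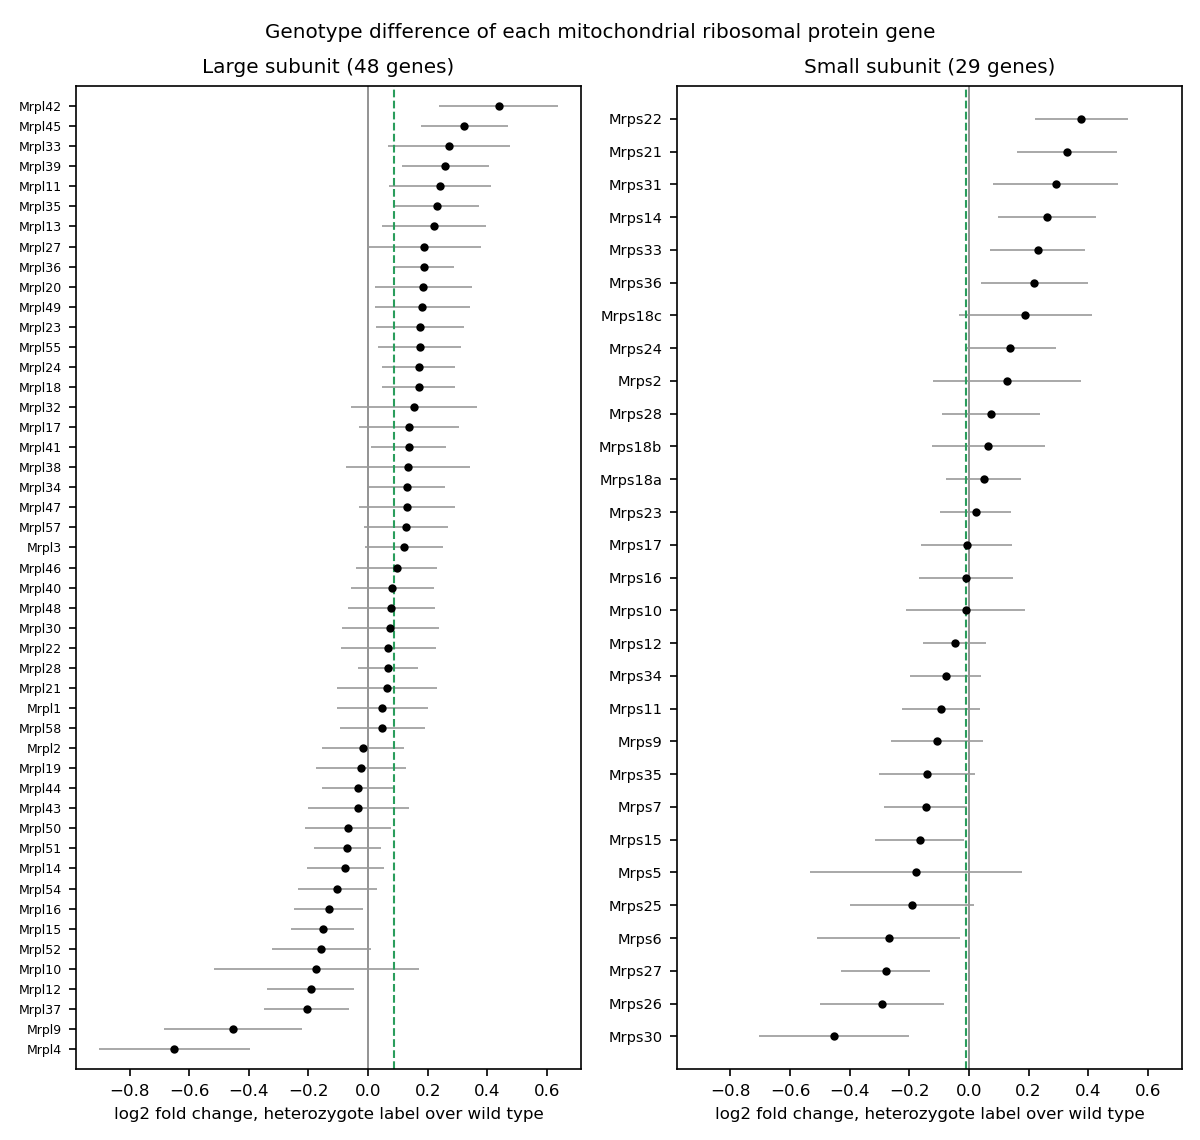
Fitted log2 fold change of each gene, heterozygote label over wild type (x axis), for the large subunit at left and the small subunit at right. Points are edgeR estimates, bars are 1 standard error, and the green dashed line is the subunit median (0.089 and -0.0095). Most genes lie within 0.3 of 0, and Mrpl4 sits farthest from it.

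In the large subunit, 32 of 48 genes had a higher fitted level under the heterozygote label, with a median log2 difference of 0.089 and a range from -0.65 to 0.44. In the small subunit, 13 of 29 did, with a median of -0.0095 and a range from -0.45 to 0.38. Over all genes tested, 48.0% had a higher fitted level, with a median of -0.018, and among the 5747 genes expressed at least as strongly as the weakest member the share was 52.4% and the median 0.017. Symbols do not match structure everywhere, since Mrps30 and Mrps18a sit in the large subunit and Mrps36 in neither. Placed by structure, 33 of 50 large-subunit and 11 of 26 small-subunit genes had a higher fitted level, with medians of 0.079 and -0.010. After correction of every library for a loess trend with GC content and length, the small-subunit count became 21 of 29 with a median of 0.11, and the large-subunit count 37 of 48 with a median of 0.15, while all genes stood at 54.1% and 0.036.

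The summed level of the large-subunit genes was 6900 ± 971 CPM (SD, n = 4) in wild-type and 7471 ± 294 CPM (SD, n = 4) in heterozygote-labelled libraries, and the ranges overlapped. The small-subunit genes summed to 3281 ± 380 CPM and 3425 ± 272 CPM (SD, n = 4 each), again with overlap. Abundant genes weigh most in these sums. Mrps14 alone averaged 633 CPM in wild-type and 759 CPM in heterozygote-labelled libraries, while only 13 of 29 small-subunit genes had a higher fitted level. Mrpl42 in the large subunit averaged 520 and 704 CPM. The ratio of the large-subunit to the small-subunit sum was 2.10 ± 0.065 under the wild-type and 2.19 ± 0.093 under the heterozygote label (SD, n = 4 each). The wild-type spread was the wider in the sums, since wild-type replicates 2 and 3 held the lowest and the highest sum of large-subunit genes of all 8 libraries, 5905 and 8190 CPM.

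Mrpl4 had the largest difference of all 77. It encodes a large-subunit protein whose bacterial relative lines the tunnel through which the nascent chain leaves. Its level was 44.0, 56.8, 30.1 and 28.5 CPM in the wild-type libraries (replicates 1 to 4, in this order here and below) against 27.6, 23.2, 21.3 and 29.4 CPM under the heterozygote label. Wild-type replicates 1 and 2 were high, and wild-type replicate 4 alone lay inside the heterozygote-labelled range. The fitted log2 difference was -0.65 (SE 0.25), with an adjusted p of 0.850 in edgeR's quasi-likelihood test (0.028 before adjustment) and an exact permutation p of 0.057.

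Mrpl9, related to a bacterial protein at the base of the L1 stalk, measured 36.9, 38.8, 29.1 and 34.2 CPM in wild-type and 33.8, 27.5, 22.9 and 17.5 CPM in heterozygote-labelled libraries. All but 1 heterozygote-labelled library lay below every wild-type library, and the fitted log2 difference was -0.45 (SE 0.23). Mrpl37 and Mrpl15 came next by p among the large-subunit genes with a lower fitted level, at log2 differences of -0.21 (SE 0.14) and -0.15 (SE 0.11). Mrpl37 is specific to mitochondria, while Mrpl15 has a bacterial relative.

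Mrpl42 had the largest positive difference. It belongs to the large-subunit proteins without a bacterial relative. Its level was 433.6, 376.3, 749.5 and 518.7 CPM in wild-type and 612.7, 721.6, 815.5 and 666.2 CPM in heterozygote-labelled libraries. Wild-type replicate 3 lay above 3 of the 4 heterozygote-labelled libraries and the other wild-type libraries below them all. The fitted log2 difference was 0.44 (SE 0.20), with an unadjusted edgeR p of 0.053.

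Mrpl45, which anchors the ribosome to the inner membrane beside the tunnel exit, measured 169.9, 178.9, 231.9 and 160.0 CPM in wild-type and 248.3, 256.9, 230.8 and 190.4 CPM in heterozygote-labelled libraries. The highest wild-type library, replicate 3, was again the one that overlapped. The fitted log2 difference was 0.32 (SE 0.15). Next by p among the genes with a higher fitted level were Mrpl36 at 0.19 (SE 0.10), which has a bacterial relative, and Mrpl39 at 0.26 (SE 0.15), which has none.

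Mrps22 was the other gene with an unadjusted p under 0.05. It encodes a mitochondria-specific protein of the small subunit, and inherited loss of its human counterpart causes a mitochondrial disease. It measured 74.3, 63.0, 78.6 and 100.2 CPM in wild-type and 92.2, 105.8, 101.2 and 111.7 CPM in heterozygote-labelled libraries. Only wild-type replicate 4 reached into the heterozygote-labelled range. The fitted log2 difference was 0.38 (SE 0.16), with an adjusted p of 0.850 in edgeR's quasi-likelihood test (0.037 before adjustment) and an exact permutation p of 0.057.

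Mrps21, Mrps14 and Mrps33 followed by p among the small-subunit genes with a higher fitted level, at log2 differences of 0.33 (SE 0.17), 0.26 (SE 0.16) and 0.23 (SE 0.16). Mrps21 and Mrps14 have bacterial relatives and Mrps33 has none. Among those with a lower fitted level, Mrps27, a helical-repeat protein that binds RNA, had the smallest p. It measured 79.9, 87.3, 84.4 and 116.6 CPM in wild-type and 69.4, 74.8, 75.6 and 83.7 CPM in heterozygote-labelled libraries, for a log2 difference of -0.28 (SE 0.15). One heterozygote-labelled library overlapped the wild-type range. Mrps26 and Mrps6 stood at -0.29 (SE 0.21) and -0.27 (SE 0.24), and Mrps30, described below, at -0.45.

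**Figure D2:**
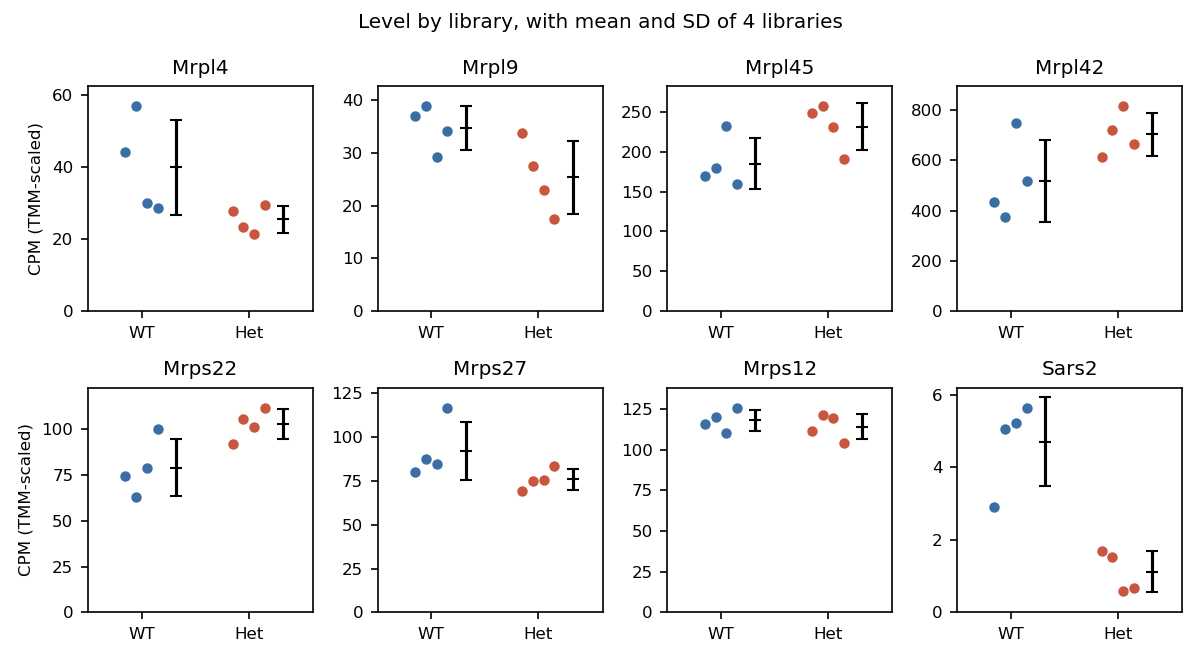
Level in CPM (y axis, from 0) of 7 mitochondrial ribosomal protein genes and of Sars2, the gene that starts beside Mrps12. Points are single libraries (blue wild type, red heterozygote label) and black bars are the mean and SD of 4 libraries. The labels overlap in the 7 ribosomal protein genes, and the 4 Sars2 points of the heterozygote label lie below all wild-type points.

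Grouped by their place in the ribosome, no gene passed the adjusted test in any group, and each group is small. The 5 genes listed for the tunnel exit and membrane contact (Mrpl22, Mrpl23, Mrpl24, Mrpl45 and Mrpl47) had a higher fitted level under the heterozygote label, with a median log2 difference of 0.17. Mrpl4, at -0.65, also lines the tunnel but was listed with the peptidyl transferase core. In the central protuberance, which contacts transfer RNA and the small subunit, 7 of 8 did, with a median of 0.089. In the core around the peptidyl transferase centre 2 of 6 did, with a median of -0.047. Of the flexible stalk that recruits translation factors, 1 of 4 did, with a median of -0.14. In the small subunit 2 of 5 genes of the decoding site and messenger RNA channel did, with a median of -0.048. Among the shell proteins of its head and foot 3 of 7 did, with a median of -0.078.

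Large-subunit proteins with a bacterial relative had a higher fitted level in 21 of 30 genes (median 0.13) and those specific to mitochondria in 12 of 20 (median 0.064). In the small subunit the counts were 6 of 16 (median -0.010) and 5 of 10 (median -0.028). Mrps18a and Mrps18b were counted as specific to mitochondria, although they are paralogs of a bacterial protein, and Mrpl58 was counted there too. These groups overlap with the functional ones, and no difference between groups was tested.

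Several members have functions beside or outside the ribosome. Mrpl12, a stalk protein that also binds the mitochondrial RNA polymerase, had a mean of 85.4 ± 12.1 CPM under the wild-type and 74.7 ± 8.28 CPM under the heterozygote label (SD, n = 4 each), with a log2 difference of -0.19 (SE 0.15). Mrpl58, a peptidyl-tRNA hydrolase that became part of the large subunit, measured 94.4 ± 14.4 and 97.5 ± 10.1 CPM (SD, n = 4 each). Mrps36, now regarded as part of the 2-oxoglutarate dehydrogenase complex, measured 23.3, 20.3, 25.1 and 23.3 CPM in wild-type and 28.0, 23.6, 28.0 and 27.5 CPM in heterozygote-labelled libraries, for a log2 difference of 0.22 (SE 0.18). Its lowest heterozygote-labelled library fell inside the wild-type range.

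Mrps30 is named for the small subunit and lies in the large one. It measured 92.6, 86.1, 59.1 and 79.2 CPM in wild-type and 50.7, 36.9, 58.3 and 85.6 CPM in heterozygote-labelled libraries, for a log2 difference of -0.45 (SE 0.25). The libraries of both labels were spread widely and overlapped.

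The 3 paralogs of the bacterial S18 protein occupy different places: Mrps18c holds the bacterial position, Mrps18b lies elsewhere in the small subunit and Mrps18a lies in the large subunit. Their log2 differences were 0.19 (SE 0.22), 0.07 (SE 0.19) and 0.05 (SE 0.13). Per kilobase of exon, their levels were 105 CPM for Mrps18c, 23.0 for Mrps18b and 34.8 for Mrps18a.

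Although a ribosome holds a single copy of nearly every one of these proteins, the RNA levels differed widely between genes. Per kilobase of annotated exon, the highest large-subunit genes were Mrpl36, Mrpl18 and Mrpl28, at 251, 225 and 221 CPM per kilobase, and the lowest were Mrpl9, Mrpl4 and Mrpl3, at 11.1, 12.5 and 15.4. The highest small-subunit genes were Mrps14, Mrps28 and Mrps21, at 214, 193 and 155 CPM per kilobase, and the lowest were Mrps35, Mrps5 and Mrps26, at 4.67, 5.0 and 8.23. The 3 highest large-subunit genes overlapped each other over the 8 libraries, as did the 2 lowest. The exon length is the union of all annotated transcripts, so a gene with long retained-intron or alternative models has a lower value per kilobase than its main transcript would give.

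**Figure D3:**
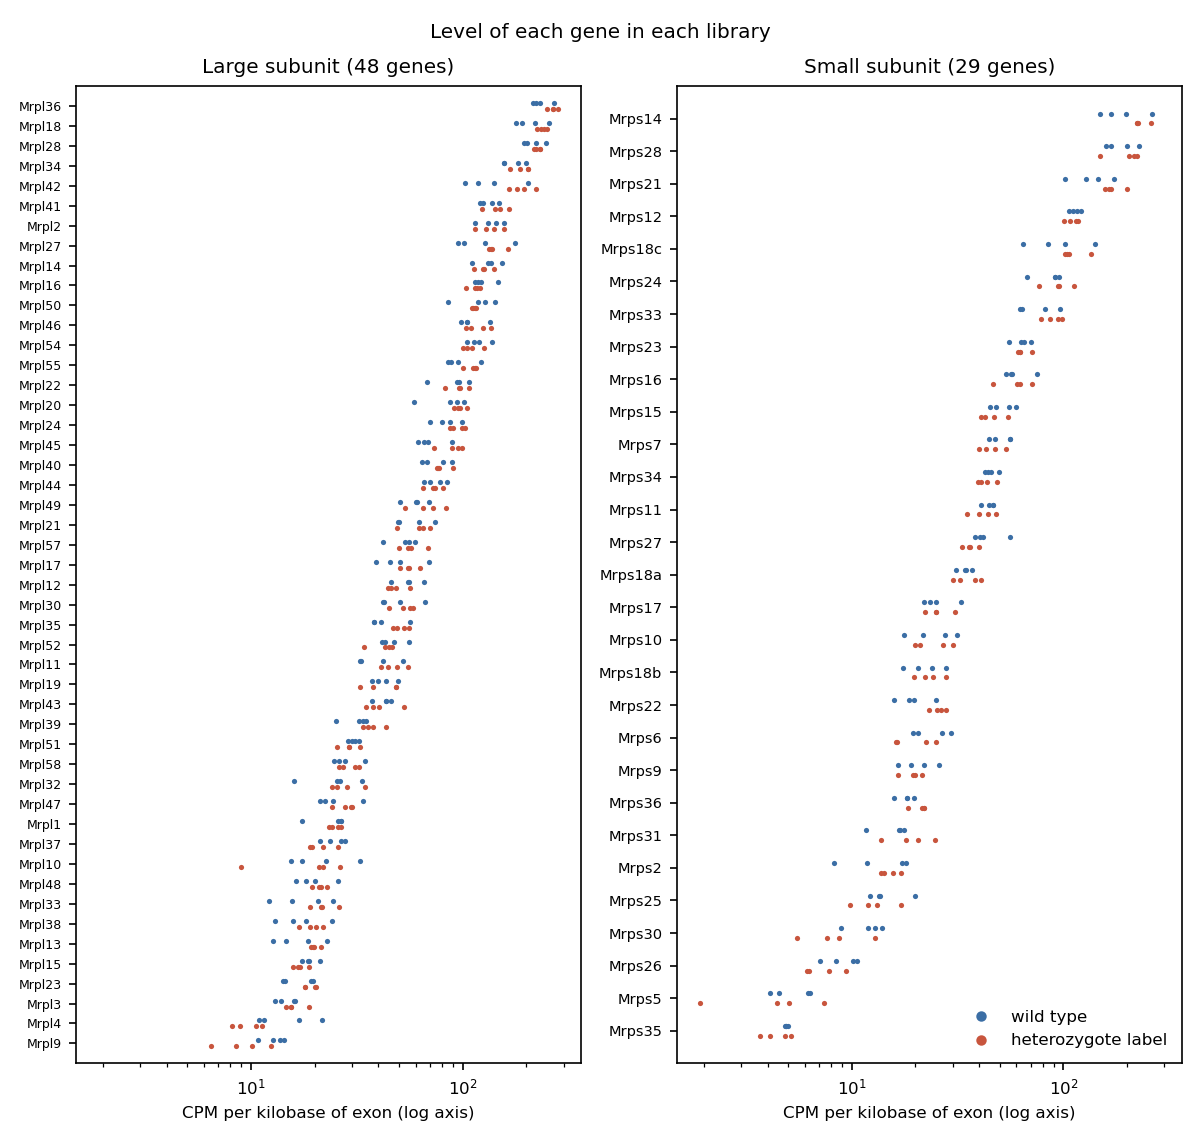
Level per kilobase of exon on a log axis for each gene, ordered by the mean of 8 libraries, large subunit at left and small subunit at right. Each point is 1 library (blue wild type, red heterozygote label). The spread between genes, from 4.67 for Mrps35 to 251 for Mrpl36, far exceeds the spread between libraries of any gene.

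Between mice the members varied less than genes at large, as did the other ribosomal protein genes. The median coefficient of variation over the 8 libraries was 14.9% for the members and 32.3% for all genes tested. It was 19.1% for all genes expressed at least as strongly as the weakest member. That set had a lower median level, 73.9 CPM against 116 CPM for the members. The 89 cytoplasmic ribosomal protein genes stood at 13.2%, and the 5 mitochondrial ribosomal proteins under other names at 9.81%. The cytoplasmic set was taken by symbol here and below, so it can hold relatives of ribosomal proteins, such as Rpl7l1. The steadiest were Mrps12, the decoding-centre protein, at 6.03% and Mrpl28 at 7.55%. Mrps12 measured 115.9, 120.3, 110.4 and 125.7 CPM in wild-type and 111.4, 121.4, 119.8 and 104.3 CPM in heterozygote-labelled libraries. The most variable were Mrpl4 at 36.4%, Mrpl10, a stalk protein, at 34.3% and Mrps5, which lines the messenger RNA entry, at 33.7%. Mrps5 measured 41.7, 41.0, 27.0 and 30.0 CPM in wild-type and 33.2, 29.1, 12.6 and 48.6 CPM in heterozygote-labelled libraries, whose lowest and highest values were the extremes of all 8.

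The median level of each subunit's genes differed between mice of 1 label. As the median deviation of the large-subunit genes from their own means, wild-type replicates 1 to 4 stood at -0.092, -0.21, 0.16 and 0.013 log2 units and heterozygote-labelled replicates 1 to 4 at -0.011, 0.062, 0.12 and 0.038. Wild-type replicate 2 was the lowest library, with 5 of 48 large-subunit genes above their mean, and wild-type replicate 3 the highest, with 40 of 48. For the small subunit the medians were -0.019, -0.14, 0.044 and 0.039 in wild-type and -0.095, 0.057, 0.18 and 0.020 in heterozygote-labelled libraries. The cytoplasmic ribosomal protein genes, 89 in number, moved over a wider range in the same libraries, from -0.32 in wild-type replicate 2 to 0.19 in heterozygote-labelled replicate 3.

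**Figure D4:**
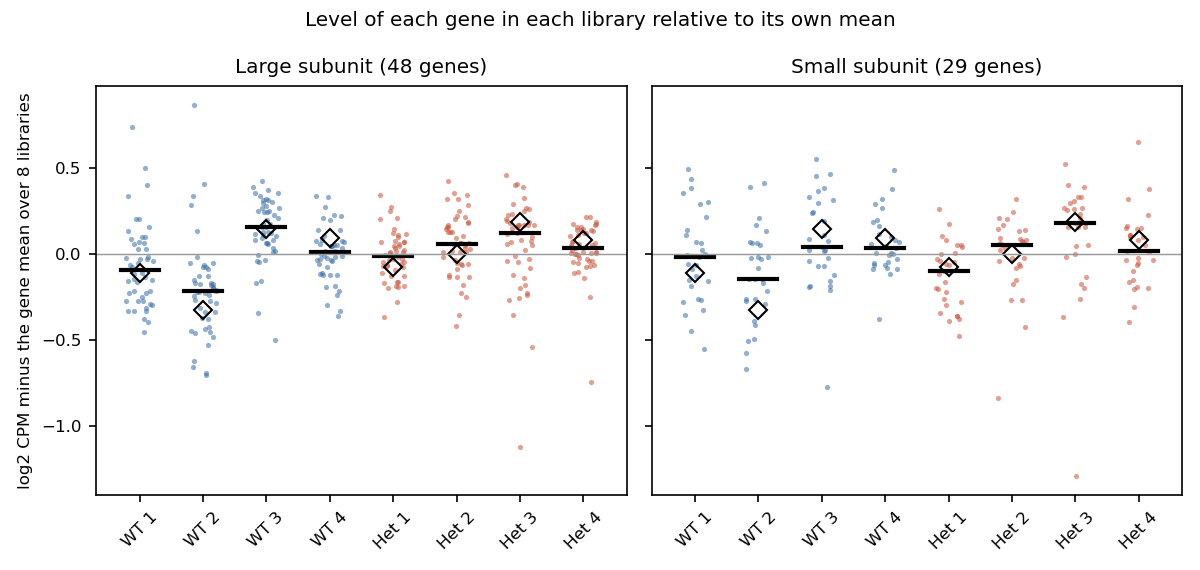
Deviation of each gene from its own mean over 8 libraries, in log2 CPM (y axis), by library (x axis, WT wild type, Het heterozygote label). Points are genes, black bars are the median of the subunit, and open diamonds are the median of 89 cytoplasmic ribosomal protein genes. Wild-type replicates 2 and 3 hold the lowest and the highest median of the large subunit, -0.21 and 0.16.

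The dependence of expression on GC content also differed between these libraries. Over 13981 genes with a GC value, the correlation between a gene's GC content and its deviation was 0.24 in wild-type replicate 2 and 0.19 in wild-type replicate 1, -0.17 in wild-type replicate 3, and between -0.10 and 0.044 in the other 5. Among the 77 members it was 0.34, 0.22 and -0.32 in the same 3 libraries, and between -0.23 (heterozygote-labelled replicate 3) and 0.089 in the other 5. Its part in the members' variation between libraries was not tested. Split at their median GC content of 50.4%, the 38 members below it stood at -0.25 in wild-type replicate 2 and 0.23 in wild-type replicate 3, and the 39 at or above it at -0.17 and 0.088, so the swing was present in both sets and wider in the AT-rich one.

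Across the 8 libraries, the median pairwise correlation was 0.32 among large-subunit genes, 0.087 among small-subunit genes and 0.14 between the subunits. It was 0.77 among cytoplasmic ribosomal protein genes and 0.0065 among all genes at or above the mean level of the weakest member. Large-subunit genes correlated with cytoplasmic ribosomal protein genes at a median of 0.49 and small-subunit genes at 0.31. Without wild-type replicates 2 and 3, a choice made after seeing the data, the median among large-subunit genes was 0.060 over 6 libraries and among small-subunit genes 0.16. It was then 0.21 between large-subunit and cytoplasmic genes, 0.33 between small-subunit and cytoplasmic genes and 0.61 among cytoplasmic genes. The large-subunit values, within the subunit and with cytoplasmic genes, thus rested largely on those 2 libraries. All of these correlations are across genes in the same few libraries, which share depth and base composition, and they are given as a description.

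Individual genes followed or opposed the median of the other genes in their subunit. In the large subunit 25 of 48 correlated with it above 0.7 and 8 below 0. Mrpl17 and Mrpl33 stood at 0.98 each and Mrpl24 at 0.96, and Mrpl4 and Mrpl12 at -0.87 and -0.85. Mrpl17 measured 344.6, 297.2, 527.1 and 386.3 CPM in wild-type and 387.0, 419.6, 478.4 and 425.2 CPM in heterozygote-labelled libraries, low in wild-type replicate 2 and high in wild-type replicate 3. Mrpl12 measured 85.0, 100.3, 70.7 and 85.7 CPM in wild-type and 74.5, 70.2, 67.8 and 86.4 CPM in heterozygote-labelled libraries, with its highest value in wild-type replicate 2.

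Over the 6 libraries left without wild-type replicates 2 and 3, Mrpl17 and Mrpl33 each remained at 0.98, Mrpl4 was at -0.95 and Mrpl12 at -0.66. The counts then were 17 above 0.7 and 18 below 0 of 48 in the large subunit, and 8 and 6 of 29 in the small. Over all 8 libraries, 7 of 29 small-subunit genes were above 0.7 and 8 below 0, with Mrps24 highest at 0.91 and Mrps5 lowest at -0.75. Over the same 8 libraries, several small-subunit genes lay closer to the large-subunit median than to their own, among them Mrps18c (0.98 against 0.71) and Mrps14 (0.97 against 0.63). The genes below 0 in the large subunit had a median GC content of 54.1% and those above 0.7 one of 50.4%, and in the small subunit the values were 51.8% and 49.2%.

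**Figure D5:**
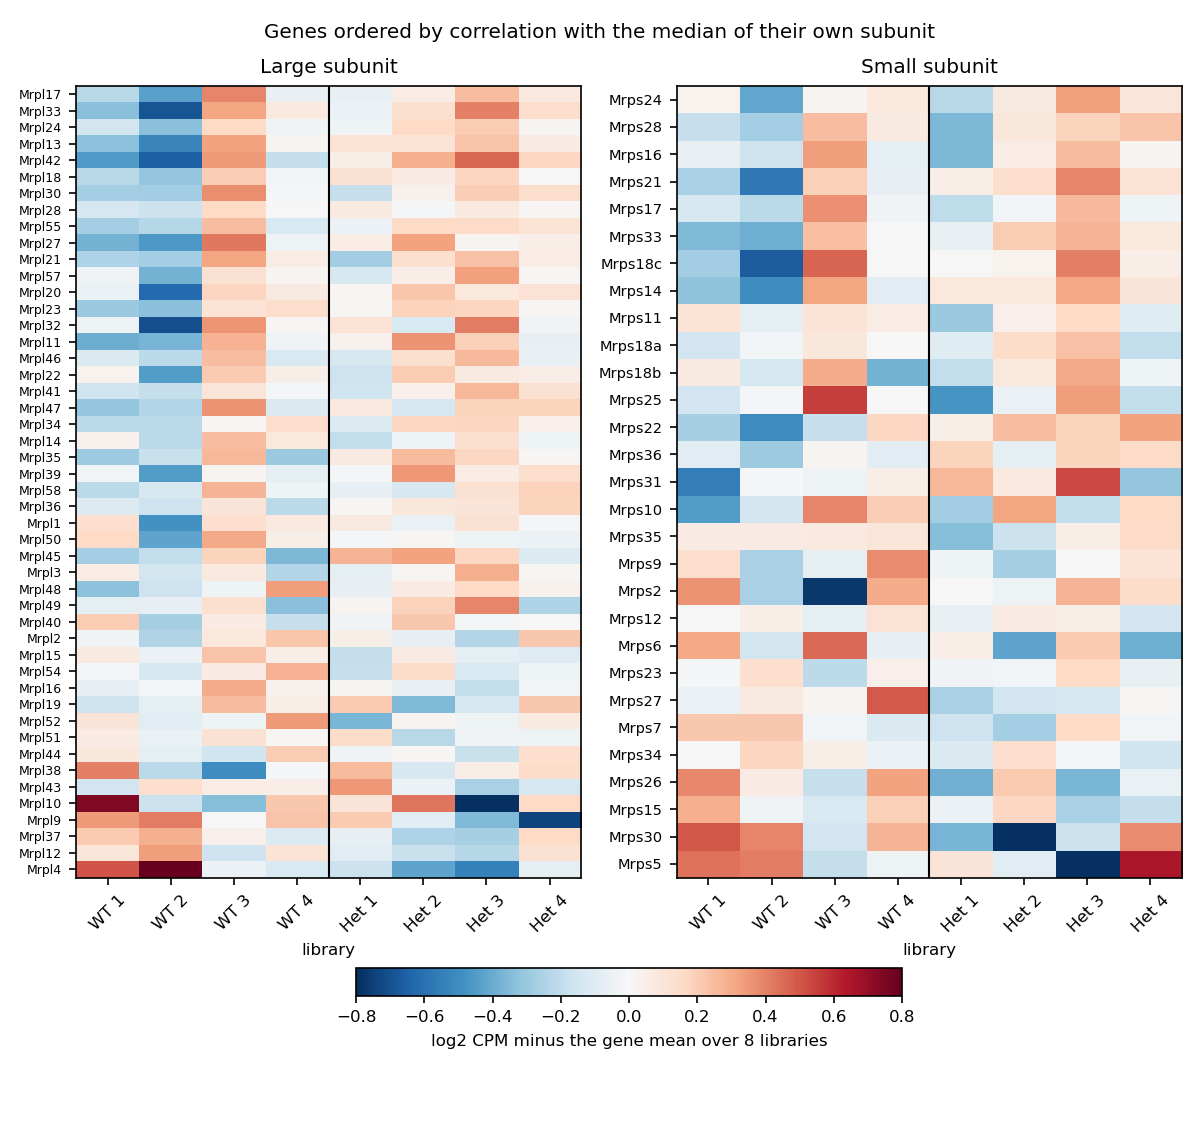
Deviation of each gene (rows) from its own mean in each library (columns), in log2 CPM, red above and blue below, with the colour saturating at 0.8. Rows run from the highest to the lowest correlation with the median of the other genes of the subunit. Wild-type replicate 2 is blue in most upper rows and red in the lowest rows of the large subunit, where Mrpl4 and Mrpl12 lie.

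Mitochondrial ribosomal proteins whose names lack the Mrp stem were compared in the same way, and 3 of 5 had a higher fitted level, with a median log2 difference of 0.11. Chchd1, a small-subunit protein, measured 182.4, 137.6, 264.2 and 203.1 CPM in wild-type and 207.1, 239.6, 243.6 and 251.1 CPM in heterozygote-labelled libraries, and Gadd45gip1, a large-subunit protein, had a log2 difference of -0.16 (SE 0.11). The mitochondrial ribosomal RNAs mt-Rnr1 and mt-Rnr2 had log2 differences of 0.15 (SE 0.13) and 0.23 (SE 0.19), in libraries depleted of ribosomal RNA. Of 89 genes with symbols of cytoplasmic ribosomal proteins 67 had a higher fitted level, with a median of 0.081, and Rpl5 and Rpl7l1 were at 0.25 and -0.25.

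Of 29 genes for assembly of the mitochondrial ribosome, 15 had a higher fitted level, with a median of 0.0023. Eral1, a GTPase that chaperones the small-subunit RNA, measured 35.4, 25.2, 17.7 and 30.3 CPM in wild-type and 15.8, 18.7, 17.9 and 16.1 CPM in heterozygote-labelled libraries, for a log2 difference of -0.66 (SE 0.24). Wild-type replicate 3 lay among the heterozygote-labelled values. Dhx30, an RNA helicase of the same process, went from 14.7 ± 4.46 to 23.2 ± 4.24 CPM (SD, n = 4 each), for a log2 difference of 0.65 (SE 0.27). Neither passed adjustment, at 0.850 each in edgeR.

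Of 17 mitochondrial translation factors 6 had a higher fitted level, with a median of -0.14. Mrrf, which recycles the ribosome after termination, had a log2 difference of -0.33 (SE 0.17) and Pdf, the deformylase, one of -0.96 (SE 0.58). Of 22 genes for mitochondrial transcription and the nucleoid 13 had a higher fitted level, with a median of 0.076. Ssbp1, the single-stranded DNA binding protein, stood at 0.33 (SE 0.17) and Tfb2m, a transcription initiation factor, at -0.32 (SE 0.20).

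The mitochondrial aminoacyl-tRNA synthetases and amidotransferase subunits, which charge the transfer RNAs that this ribosome uses, had mostly lower fitted levels under the heterozygote label. Of 20 genes 4 had a higher fitted level, with a median of -0.28 and a range from -2.06 to 1.82. The highest was Aars2, near the floor at 0.354 CPM in wild-type and 1.26 CPM in heterozygote-labelled libraries. The median deviation of the 20 genes was 0.24, 0.18, -0.023 and 0.11 in wild-type libraries. It was 0.0053, -0.056, -0.26 and 0.032 in heterozygote-labelled ones, so wild-type replicate 3 lay inside their range. Of the 20 genes, 3 had an unadjusted edgeR p under 0.05 (5.66% of all genes did), and 2, Sars2 and Gatb, had labels that did not overlap (3.47% of all genes). None passed adjustment over all genes. Sars2, the seryl-tRNA synthetase, had 70, 104, 109 and 128 counts in wild-type and 34, 25, 11 and 13 counts in heterozygote-labelled libraries. This amounted to 4.70 ± 1.23 and 1.12 ± 0.573 CPM (SD, n = 4 each), for a log2 difference of -2.06 (SE 0.55) with an adjusted p of 0.850 in edgeR's test (0.0038 before adjustment) and an exact permutation p of 0.029, the smallest that 4 against 4 allows. Lars2, the leucyl-tRNA synthetase, measured 328.8, 302.5, 71.4 and 200.6 CPM in wild-type and 121.8, 62.2, 62.3 and 134.9 CPM in heterozygote-labelled libraries, for a log2 difference of -1.24 (SE 0.44), with wild-type replicate 3 inside the heterozygote-labelled range. Tars2, the threonyl-tRNA synthetase, stood at -1.04 (SE 0.44), and its lowest value, 10.1 CPM, was that of wild-type replicate 3.

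Regulators of nuclear genes for mitochondria were compared as well. Of 12 tested 3 had a higher fitted level, with a median of -0.15. Nrf1, Gabpa and Yy1, whose binding motifs are searched below, had log2 differences of -0.16 (SE 0.30), -0.15 (SE 0.20) and 0.11 (SE 0.20). Myc stood at -0.50 (SE 0.22), with 223.0, 199.5, 111.1 and 145.6 CPM in wild-type and 142.4, 96.0, 124.2 and 116.7 CPM in heterozygote-labelled libraries, and Crem at 0.80 (SE 0.41).

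Some mitochondrial ribosomal protein genes start beside another gene. 18 of 77 (23.4%) had another protein-coding gene start within 1000 bases on the opposite strand, facing away, against 11.0% of 11341 other protein-coding genes tested. Such pairs included Mrpl49 with Fau, a cytoplasmic ribosomal protein gene, Mrpl32 with the proteasome gene Psma2, Mrpl43 with Twnk, the mitochondrial DNA helicase, and Mrps27 with Ptcd2. The members of a pair did not share their differences in every case. Mrps12 and Sars2 start 172 bases apart on chromosome 7, and Mrps12 had a log2 difference of -0.05 (SE 0.11) where Sars2 had -2.06. Mrps34 and Eme2 start 29 bases apart, with log2 differences of -0.08 and -1.00 (SE 0.39). Eme2 averaged only 8.45 CPM in wild-type and 4.21 CPM in heterozygote-labelled libraries. Of the pairs named first, Mrpl32 and Psma2 stood at 0.15 and 0.21, and Mrpl49 and Fau at 0.18 and 0.09. Mrpl43 and Twnk stood at -0.03 and 0.09, and Mrps27 and Ptcd2 at -0.28 and 0.07.

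The stretch between the 2 starts is shown because 1 side of it was steady and the other was not. It is given in the direction of Mrps12, from just upstream of the annotated Sars2 start to just upstream of the Mrps12 start, at chr7:28741822-28741991 on the minus strand (RefSeq promoter table, GRCm38.p6, 170 bases, intergenic), with the 1 match to the SP1 motif in capitals.
Mrps12: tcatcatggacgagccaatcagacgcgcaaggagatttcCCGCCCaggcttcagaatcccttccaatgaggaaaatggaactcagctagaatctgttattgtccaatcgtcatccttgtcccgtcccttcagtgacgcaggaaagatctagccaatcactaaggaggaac

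Promoters were searched for the motifs of factors known to control mitochondrial genes. The RefSeq table gave 74 windows for 68 of the 77 genes, each of 250 bases before and 50 bases after a start. Mrpl4, Mrpl13, Mrpl15, Mrpl19, Mrpl38, Mrpl54, Mrps28, Mrps34 and Mrps35 have no entry in it. On either strand, the ETS motif CCGGAAG, bound by GABP among others, was found in 33.8% of members' windows, 18.2% of windows of other protein-coding genes tested and 8.86% of all windows of that length. The NRF1 motif GCGCANGC was found in 29.7%, 19.8% and 9.95%, and the YY1 motif AANATGGCG in 14.9%, 5.24% and 2.38%. The SP1 motif GGGCGG was found in 52.7%, 61.9% and 35.7%. The NRF1 motif nearly equals its own reverse complement, so 2 matches can overlap, and the ETS and YY1 motifs can share bases. NRF1 matches were in 34.0% of large-subunit and 22.2% of small-subunit windows and ETS matches in 29.8% and 40.7%. 12 windows held none of the 4 motifs. A match is a description of the letters and not a site of binding.

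Upstream stretches are shown for genes that anchored the results: Mrpl17 and Mrpl42 followed the large-subunit median, Mrpl12 and Mrpl9 opposed it, and Mrpl45 and Mrps22 were among those with the largest positive differences. Each is the 120 bases before the RefSeq start (GRCm38.p6), in the direction of transcription, with matches that lie wholly inside it in capitals. Mrpl17 is at chr7:105811088-105811207 (minus strand, 2 NRF1 matches and 1 SP1 match), Mrpl42 at chr10:95501950-95502069 (minus strand, 1 SP1 match) and Mrpl12 at chr11:120484517-120484636 (plus strand, 1 NRF1 match). Mrpl9 is at chr3:94443216-94443335 (plus strand, 2 overlapping NRF1 matches), Mrpl45 at chr11:97315596-97315715 (plus strand, 2 NRF1 matches) and Mrps22 at chr9:98601680-98601799 (minus strand, 1 ETS match).
Mrpl17: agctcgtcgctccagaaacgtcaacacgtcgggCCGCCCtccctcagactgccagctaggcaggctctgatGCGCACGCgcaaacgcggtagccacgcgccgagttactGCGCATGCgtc
Mrpl42: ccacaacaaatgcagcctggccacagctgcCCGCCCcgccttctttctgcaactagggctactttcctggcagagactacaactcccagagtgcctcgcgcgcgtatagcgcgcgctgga
Mrpl12: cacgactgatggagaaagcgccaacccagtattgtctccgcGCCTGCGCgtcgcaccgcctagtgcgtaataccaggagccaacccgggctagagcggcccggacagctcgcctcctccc
Mrpl9: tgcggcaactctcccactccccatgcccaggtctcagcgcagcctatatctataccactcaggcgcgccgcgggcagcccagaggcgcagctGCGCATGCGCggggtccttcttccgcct
Mrpl45: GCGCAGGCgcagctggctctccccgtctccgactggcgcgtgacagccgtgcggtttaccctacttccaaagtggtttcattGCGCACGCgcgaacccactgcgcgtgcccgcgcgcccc
Mrps22: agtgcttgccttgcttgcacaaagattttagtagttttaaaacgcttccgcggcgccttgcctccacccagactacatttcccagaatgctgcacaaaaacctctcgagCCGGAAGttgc

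By the RefSeq starts, NRF1 matches thus stood upstream of Mrpl17, which followed the median most closely, and upstream of Mrpl12 and Mrpl9, which opposed it. The GENCODE starts of Mrpl12, Mrpl9 and Mrpl17 lie inside the printed stretches, close to their 3′ ends. The Mrpl17 match nearer the 3′ end lies just past that gene's GENCODE start.

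One gene named for the family did not enter. Mrpl53, a protein near the stalk, had 1 count in wild-type replicate 3 and 0 in the other 7 libraries. On chromosome 6, 88.0% of its 790 exon bases are shared on the same strand with Gm42688, an annotated gene that runs across it, and fragments overlapping more than 1 gene were not counted. Gm42688 itself, 82.2% of whose exon bases are shared with Ccdc142 and Mrpl53, had 1 to 23 counts. The counts therefore do not measure the expression of Mrpl53. Of the 77 members, 7 shared exon bases with another gene on the same strand, at most 37.0%, in Mrps34 with Nme3. Mrps18c shared 23.2%, Mrps24 15.4% and Mrps6 15.1%. Their levels may be lowered by uncounted fragments, and the loss was not measured.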

How the data were processed

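Per the labels' protocols, total RNA was depleted of ribosomal RNA and made into strand-specific libraries. Per the submitters' processing notes, Trim Galore and cutadapt trimmed the reads and STAR 2.5.1b aligned them to GRCm38. The deposited values are raw fragment counts per gene from the authors, one per gene of GENCODE M17, from reverse-stranded featureCounts that left out fragments mapping to several places or overlapping several genes on a strand, per the file headers. These name featureCounts 1.6.2, and the processing notes name 1.5.1. Counts of near-identical or overlapping genes can therefore be too low.

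Symbols came from GENCODE M21 of the same build (53620 of 53715 genes). Genes were kept by filterByExpr (13992 genes) and fitted with edgeR 4.0.16 in R 4.3.3 (TMM scaling, robust quasi-likelihood, genotype label as the only term), with two-sided p-values adjusted over all of them by the Benjamini-Hochberg method. Log2 CPM carries a prior count of 2. Alternatives were DESeq2 1.42.0, limma-voom 3.58.1 with quality weights per sample, other scalings and filters, thresholds, a replicate block, removal of GC and length trends (loess), and each library left out. The procedure was tested on simulated data, only with differences larger than that of any member, so this test does not cover differences of the size described here. Single genes were also tested by exact permutation (70 assignments).

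The genes described and the gene lists were chosen with earlier results of these data known. The text names, per subunit and direction, the 4 genes of smallest p, the 3 highest and 3 lowest per kilobase, genes with a second role, and the 2 genes of smallest p per list. Others named were chosen after their values were seen. Some marker genes are not reported here. Nothing in the labels says whether the mice were littermates, and p-values measure the spread between these libraries only. No 2 libraries were alike within counting noise (chi-square per degree of freedom at least 38.1). By this measure, which also grows with depth, wild-type replicate 3 lay nearer to the heterozygote-labelled libraries (38.9 to 51.4) than to the other wild-type ones (62.3 to 104). Wild-type replicate 4 leaned the same way, at 40.3 to 65.9 from the heterozygote-labelled libraries and 62.3 to 67.7 from the other wild-type ones, with overlap. Wild-type replicates 1 and 2 were nearest to each other (38.8). The cause was not tested.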

Additional observations from a re-analysis of the deposited data

Results flagged for a closer look

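Of 96 groups of 4 libraries examined, 6 had 1 library far from the other 3, and chance gives about 1 in 20. Heterozygote-labelled replicate 3 was the high library for Mrps14, at 9.73 log2 CPM with the others between 9.50 and 9.52, and for Mrps18c, at 7.18 with the others between 6.78 and 6.83. It was also the low library for Gadd45gip1, at 6.76 with the others between 7.09 and 7.14. Mrps36 stood at 4.56 in heterozygote-labelled replicate 2, below the 4.79 to 4.81 of the others. Wild-type replicate 1 was the low library for Pdf, at 0.012 with the others between 0.86 and 0.96, and for Sars2, at 1.58 with the others between 2.36 and 2.52.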

How the results depend on the processing

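No alternative called any of the 77 genes after adjustment. Over all genes DESeq2 called 29, where edgeR and limma called 0 (792 and 1461 at an unadjusted p under 0.05). The members' count at an unadjusted p under 0.05, 2 in the report, was 4 with library-size scaling (5.19%, against 6.15% of all genes), 4 in DESeq2 (against 7.40%), 9 in limma (11.7%, against 10.4%), 4 without a filter (against 6.14%), 6 with GC and length trends removed (7.79%, against 5.28%) and 6 without wild-type replicates 2 and 3 together (against 8.13%), the last chosen after seeing the data. It was 0 at a threshold of 0.01, and ran from 0 to 18 with each library left out. With GC and length trends removed, 21 small-subunit genes had a higher fitted level and their median was 0.11. With each library left out the small-subunit median ran from -0.044 to 0.067 and the large-subunit median from 0.037 to 0.16.

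Among 45 named genes, 7 changed sign under some alternative: Mrps18a to -0.012 and Mrpl58 to -0.0093 with library-size scaling, and Mrps12 to 0.11, Gadd45gip1 to 0.036 and mt-Rnr1 to -0.089 with GC and length trends removed. With each library left out, Mrps5 ran from -0.48 to 0.082, Mrps18a from -0.024 to 0.12, Mrps18b from -0.038 to 0.19 and Mrpl58 from -0.0088 to 0.16. The cause was not tested. Library-size scaling moved the median of all genes to -0.082.

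Deviations of same-numbered libraries of the 2 labels correlated at 0.0057 to 0.096. Those of differently numbered libraries correlated at -0.084 to 0.050. Correlations over all genes cannot tell whether the numbers pair mice, since a shared effect could touch few genes. With the replicate number as a block, 5 members (6.49%, against 6.76% of all genes) had an unadjusted p under 0.05 and 0 passed adjustment. Depth limits few members, since the weakest averaged 23.2 CPM. The confidence intervals come from the edgeR fit and include the spread between mice.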
